A study of Drosophila melanogaster with 4 samples.

Results

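KDM4A-enriched regions were examined on 5 sequence scaffolds of Drosophila melanogaster that FlyBase release 5 assigns to pericentric or Y-linked heterochromatin, named 2LHet, 3LHet, 3RHet, XHet and YHet. Members were all rows typed as significantly enriched whose sequence name was one of these 5, with no filter on score or width. This gave 532 of 11489 regions in ChIP replicate 1, 41 of 5780 in ChIP replicate 2, and 455 of 11016 in the list deposited for the whole series, called the combined list here. The scaffolds together hold 5.99 Mb: 2.56 Mb of 3LHet, 2.52 Mb of 3RHet, 369 kb of 2LHet, 347 kb of YHet and 204 kb of XHet. No repeat annotation or HP1a profile was used, so their heterochromatic nature rests on the names in the assembly.

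KDM4A is a JmjC-domain demethylase that removes methyl groups from lysines of histone H3, H3K36 among them, and it binds heterochromatin protein HP1a. Pericentric heterochromatin of flies consists mostly of satellite repeats and fragments of transposable elements, carries H3K9 methylation and HP1a, and is compacted through most of the cell cycle. It also contains protein-coding genes, of which light, at the base of the left arm of chromosome 2, is a classic example. The Y chromosome is heterochromatic along its whole length and carries male fertility genes. Reads from repeats often match several places, so only the less repetitive stretches of such sequence were assembled and can take up uniquely placed reads.

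The ChIP samples came from nuclei of 3rd instar larvae of the wild-type strain Oregon-R, precipitated with Q2541, an affinity-purified polyclonal rabbit antibody raised against a stretch of JMJD2A/KDM4A. There were 2 ChIP and 2 input samples, numbered 1 and 2 in their titles, and they share strain, stage and genotype. Whole larvae mix diploid with polytene cells, whose heterochromatin is under-replicated. The free-text descriptions of 2 of the 4 samples, among them ChIP replicate 2, name the other kind of DNA than their titles and source names do, and grouping followed the titles. No region list of an input sample was used, and nothing in the labels says that the numbered samples came from separate larvae, so their spread may be technical. With 2 ChIP samples no test across samples was possible, and every comparison is a description. Values in brackets after a share of regions are its exact 95% interval (Clopper-Pearson) for counting error alone, and read depth is unknown.

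KDM4A regions were plentiful on the scaffolds in replicate 1 and sparse in replicate 2. Replicate 1 had 88.8 regions per Mb on the 5 scaffolds, against 83.6 per Mb on the arms 2L, 3L, 3R and X, the reference used throughout. The arms were taken over their full length, ends near the centromere included, so they may hold heterochromatin. Contrasts with the arms are thus not between heterochromatin and euchromatin. Replicate 2 had 6.84 regions per Mb on the scaffolds, against 45.2 on the arms. The replicate 2 count was thus 7.71% of the replicate 1 count on the scaffolds and 54.0% on the arms. It was 15.5% on the sequence named U and 64.8% on chromosome 4. Over the 2 replicates the regions covered 13.0 ± 15.9% of the scaffolds (SD, n = 2) and 17.6 ± 7.66% of the arms. The single values were 24.2% of the scaffolds and 23.0% of the arms in replicate 1, and 1.77% and 12.2% in replicate 2. Their ratio, scaffolds over arms, was 1.05 in replicate 1 and 0.145 in replicate 2, a mean of 0.598 ± 0.640 (SD, n = 2). The replicate 1 ratio crossed equality with the way regions were counted: it was 1.61 when that list was reduced to its best-scoring regions at the length of replicate 2, and 0.772 when regions with a tied score were left out. Neither choice fell evenly on the 2 parts. The reduced list kept 463 of 532 scaffold regions and 3726 of 8185 arm regions. Tied scores made up 60.9% of scaffold regions and 37.8% of arm regions.

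The scaffolds differed from each other, with XHet at the top and YHet at the bottom in both replicates. On XHet 28.0% of bases lay in replicate 1 regions and 3.85% in replicate 2 regions. The values were 27.6% and 2.35% for 3LHet, 23.6% and 1.07% for 3RHet, and 19.6% and 2.78% for 2LHet. YHet, the Y-linked sequence, had 6.13% and 0.402%. The order of the middle scaffolds was not the same in the replicates, since 2LHet came after 3LHet and 3RHet in replicate 1 and before them in replicate 2. Counts behind the smaller scaffolds are low: XHet and 2LHet had 3 replicate 2 regions each and YHet had 1, against 22 on 3LHet and 12 on 3RHet. In the combined list the covered shares were 22.6% for XHet, 19.8% for 3LHet, 18.7% for 2LHet, 12.9% for 3RHet and 3.94% for YHet, and 16.0% over all 5, against 21.9% of the arms. The combined list thus lay nearest to replicate 1 on 2LHet and farthest below it on 3RHet.

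**Figure D1:**
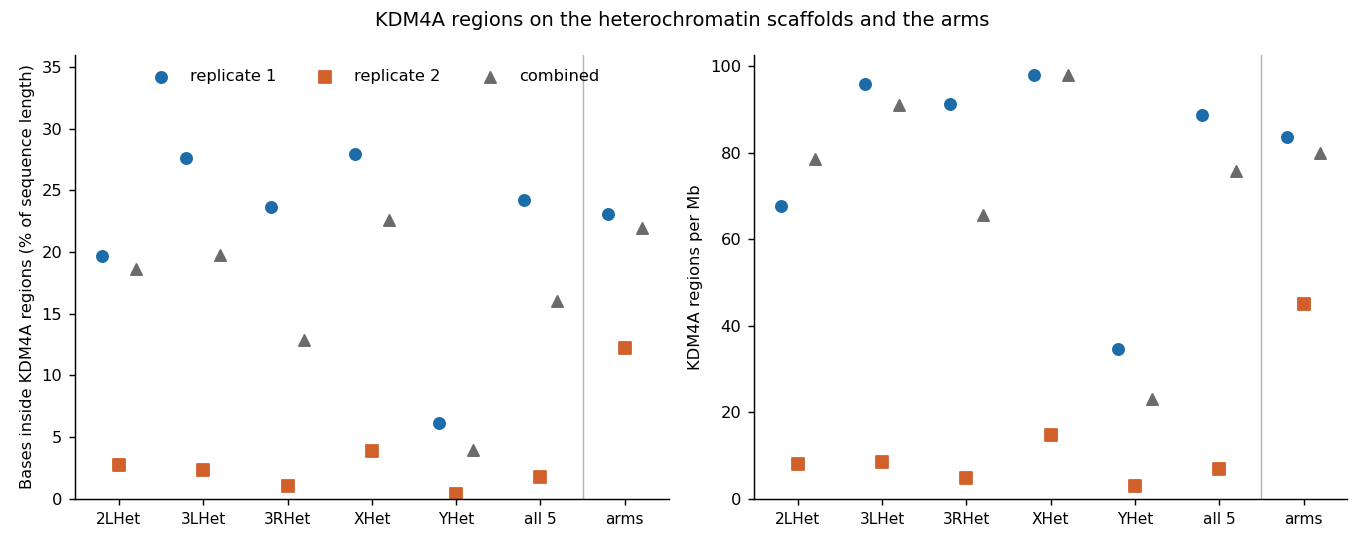
Covered share (left, % of the sequence length in the file headers) and regions per Mb (right) for each scaffold, for all 5 pooled and for the arms 2L, 3L, 3R and X, in both ChIP replicates and the combined list. Each point is 1 list; replicate 2 lies below 4% covered on every scaffold and at 12.2% on the arms.

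Median widths of scaffold regions lay close to those of the arms in each replicate, and were lower on the scaffolds in the combined list. The median width on the scaffolds was 2096 bp in replicate 1 and 2313 bp in replicate 2, a mean of 2204 ± 153 bp (SD, n = 2), against 2176 and 2269 bp on the arms. The shortest scaffold region was 1303 bp in replicate 1 and 1319 bp in replicate 2, and the shortest of the arms 1301 and 1305 bp. The shortest of the combined list was 1001 bp. The combined median was 1525 bp on the scaffolds, against 2143 bp on the arms, and 73.0% of its scaffold regions were under 2 kb, against 42.9% on the arms. Regions under 2 kb also made up 44.4% of scaffold regions in replicate 1 and 43.9% in replicate 2, against 39.6% and 28.0% on the arms. Short regions thus had the larger share on the scaffolds in all 3 lists, with the widest difference in the combined list.

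Wide regions made up a similar share of scaffold and arm regions in replicate 1, and a smaller share on the scaffolds in the other lists. Replicate 1 had 43 scaffold regions over 5 kb (8.08% of 532), against 8.77% on the arms, and they held 23.0% of the covered bases, against 22.8%. Of these 43, 24 were on 3LHet, 15 on 3RHet, 2 each on 2LHet and XHet, and 0 on YHet. As shares of each scaffold's regions these were 10.0% on XHet, 9.80% on 3LHet, 8.00% on 2LHet and 6.52% on 3RHet, so the high counts on 3LHet and 3RHet went with their larger numbers of regions. Over 10 kb there were 6, divided equally between 3LHet and 3RHet. The widest, 3LHet 1382951 to 1398937, spanned 15987 bp. Replicate 2 had a single scaffold region over 5 kb, the 11695 bp of 3LHet 591537 to 603231. That was 2.44% of its scaffold regions, against 6.45% on the arms. In the combined list the shares over 5 kb were 5.49% on the scaffolds and 9.76% on the arms. YHet regions were narrow and uniform in replicate 1, between 1316 and 2401 bp.

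**Figure D2:**
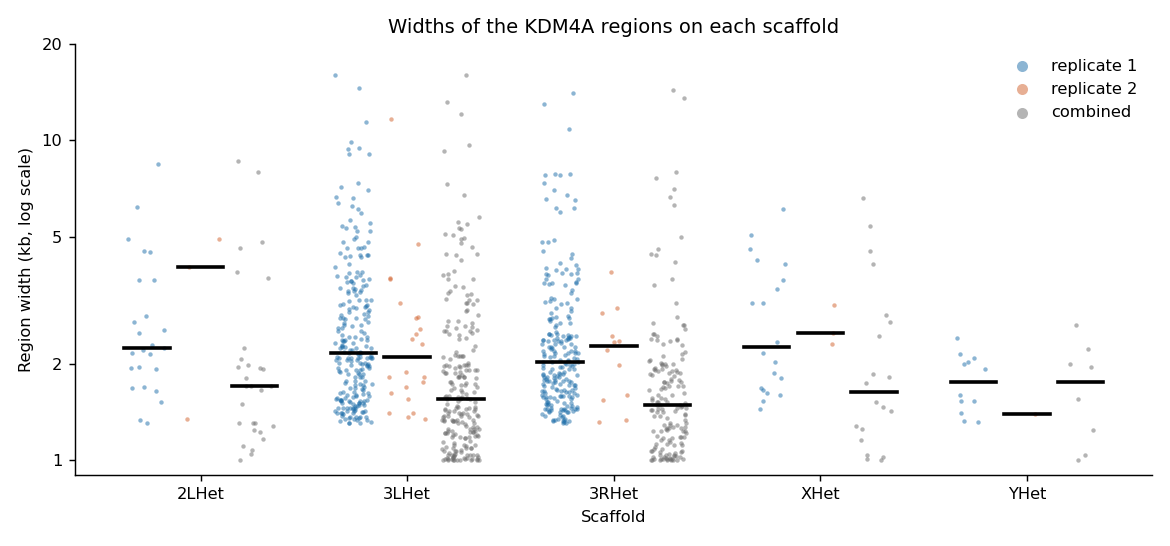
Width of every KDM4A region on each scaffold (kb, log scale) in replicate 1, replicate 2 and the combined list; points are regions, spread sideways for visibility, and black lines are medians. The lower edge of the points lies near 1.3 kb in the replicates and at 1.0 kb in the combined list.

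Spacing differed between the replicates more than width did, beside counts of 532 and 41 scaffold regions. Fewer regions on the same length stand farther apart, so the gaps are not separate from these counts. From the end of a scaffold region to the start of the next, the median gap was 4.23 kb in replicate 1, against 3.14 kb on the arms. Replicate 2 had a median gap of 40.1 kb, against 5.52 kb on the arms. Replicate 1 medians were 3.31 kb on XHet, 3.79 kb on 3RHet, 4.19 kb on 2LHet and 4.41 kb on 3LHet, and 23.5 kb on YHet, where the shortest gap was 5041 bp. In replicate 2 they were 9.06 kb on XHet, 35.7 kb on 3LHet, 60.0 kb on 3RHet and 150.5 kb on 2LHet. XHet thus had the closest spacing in both replicates, although in replicate 2 XHet and 2LHet had only 2 gaps each. Gaps were uneven: the replicate 1 mean gap was 1.97 times the median on the scaffolds and 2.93 times on the arms, but 1.03 times on YHet, whose 11 gaps still ran from 5041 to 56111 bp. At most 5 kb separated 55.0% of scaffold neighbours in replicate 1 and 13.9% in replicate 2, against 61.9% and 47.5% on the arms.

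**Figure D3:**
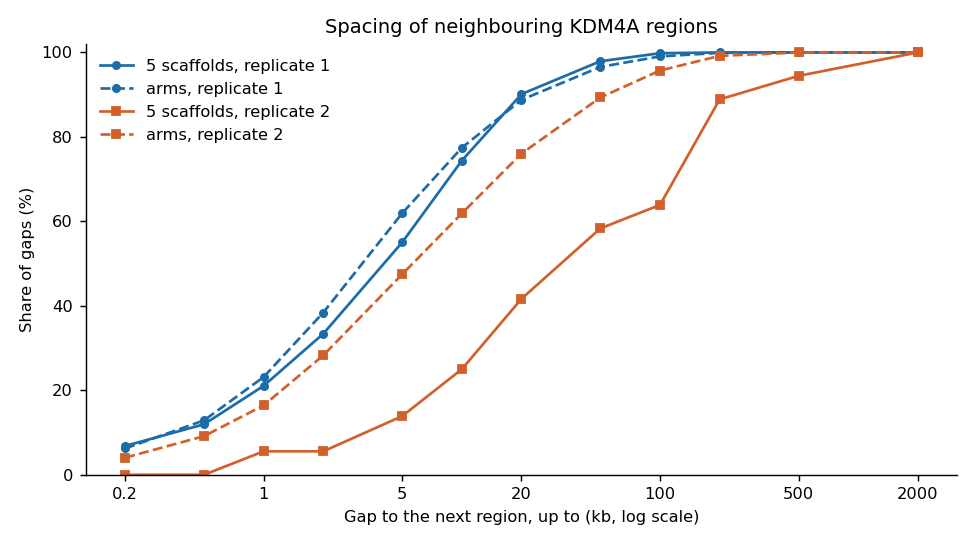
Share of gaps between neighbouring regions (%) that are no longer than a given length (kb, log scale), on the 5 scaffolds (solid) and the arms (dashed), in replicate 1 (circles) and replicate 2 (squares). The replicate 1 curves run close together, and the replicate 2 scaffold curve lies below the other 3 up to 500 kb.

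Most replicate 1 regions on the scaffolds stood in clusters, defined as runs of at least 3 regions with gaps of at most 5 kb. There were 67 such clusters with 303 of the 532 regions (57.0%), against 67.3% of regions on the arms, or 11.2 clusters per Mb against 10.7 per Mb. In replicate 2 no scaffold region was in a cluster (0 of 41), against 48.0% on the arms, 68.7% on chromosome 4 and 4.41% on U. Replicate 2 had 6.84 regions per Mb on the scaffolds, and the part of this low density in the absence of clusters was not tested. The share in clusters was 72.0% on 2LHet (4 clusters), 59.6% on 3RHet (30), 55.9% on 3LHet (31), 55.0% on XHet (2) and 0 on YHet. The pooled share of replicate 1 depended on the gap allowed, with 24.1% at 2 kb and 80.5% at 10 kb. At runs of at least 2 regions it was 77.3%, and 24.4% in replicate 2.

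Replicate 1 clusters spanned a median of 17.4 kb and at most 56.8 kb. The longest one, 3LHet 670908 to 727688, had 12 regions, which covered 59.5% of it, and replicate 2 had 3 regions inside. On 3RHet the longest ran from 1792664 to 1841862 with 8 regions over 69.4% of its 49.2 kb and 2 regions of replicate 2. The cluster at XHet 55145 to 92284 was the densest of these, with 8 regions over 78.6% of 37.1 kb and all 3 replicate 2 regions of XHet. On 2LHet the longest, 181699 to 204833, had 5 regions over 53.1% of 23.1 kb and none of replicate 2. In all, 16 of the 67 clusters were touched by a replicate 2 region, and 26 of the 41 replicate 2 regions touched a replicate 1 cluster. For reference, clusters held 57.0% of all replicate 1 scaffold regions. Of replicate 1 regions in clusters, 31 of 303 were found in replicate 2 (10.2%, 7.06 to 14.2), against 10 of 229 outside them (4.37%, 2.11 to 7.88). The arms had the same direction, with 54.7% found in clusters and 38.7% outside. Clustered scaffold regions were also wider, with a median of 2217 bp against 1939 bp outside. The part of width in the difference in support was not tested.

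Regions were unevenly placed along each scaffold. Each was divided into 10 equal segments numbered from its first base. On 3RHet the most covered segment was number 8 in both replicates, with 45.4% in replicate 1 and 5.53% in replicate 2, and the least covered one in replicate 1 was number 2, with 12.3%. On XHet it was number 4 in both, with 83.3% and 20.4%, while segments 9 and 10 held no region in any list. On 2LHet it was number 1 in both, with 45.1% and 13.3%, and segment 3 was empty in all 3 lists. On YHet it was number 10 in both, with 16.5% and 4.02%. The exception was 3LHet, where replicate 1 was highest in segment 10 (38.2%) and replicate 2 in segment 3 (9.90%). The segment of highest cover was therefore the same in both replicates on 4 of 5 scaffolds, although on 2LHet, XHet and YHet this rests on 1 to 3 replicate 2 regions.

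**Figure D4:**
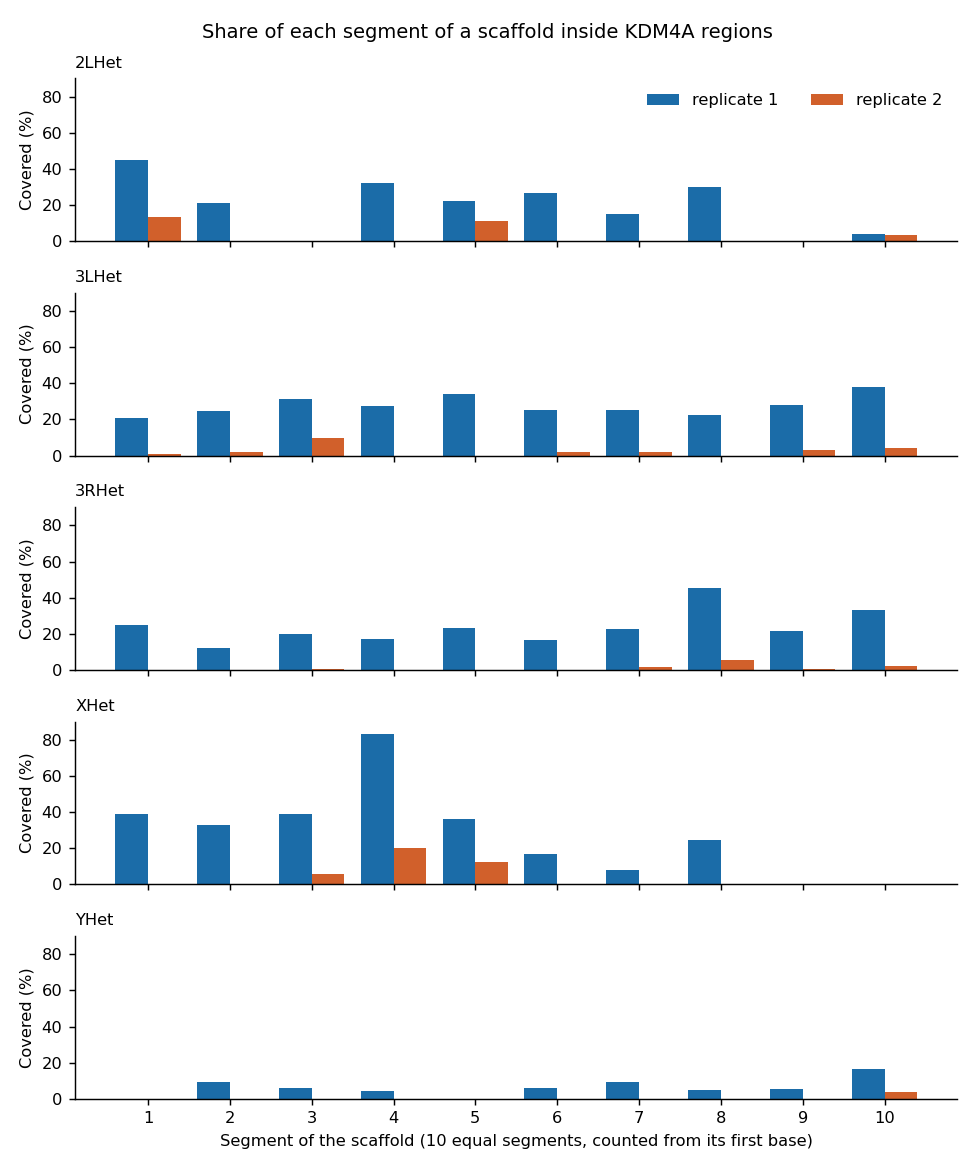
Share of each of 10 equal segments of a scaffold that lies inside KDM4A regions (%), in replicate 1 (blue) and replicate 2 (orange), with segments numbered from the first base. Both replicates peak in segment 8 of 3RHet, segment 4 of XHet, segment 1 of 2LHet and segment 10 of YHet.

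Windows of 100 kb on the 2 long scaffolds gave the same contrast between 3RHet and 3LHet. On 3RHet, all 8 windows with any replicate 2 base had 25.9 to 53.6 kb covered in replicate 1, whereas the 17 windows without one had 2.23 to 26.2 kb. Covered bases of the replicates correlated with r = 0.82 and rho = 0.80 over these 25 full windows, and r = 0.65 without the pair of windows farthest from the replicate 1 median. On 3LHet, 13 windows with a replicate 2 base had 4.29 to 54.5 kb in replicate 1 and 12 without had 4.59 to 39.6 kb, and r and rho were both 0.29. Windows of 1 scaffold are neighbours in the same libraries and share mappability, so no p is given. On 3RHet, 7 of the 12 replicate 2 regions lay between 1685576 and 1936479, a stretch of 9.97% of the scaffold. It was touched by 33 replicate 1 regions. On 3LHet, 7 of 22 lay between 591537 and 710858, 4.67% of the scaffold, beside 15 replicate 1 regions. Both stretches were drawn from the first to the last of the regions they count, so these shares do not measure concentration.

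Long stretches without replicate 2 regions held many replicate 1 regions. The longest gap of replicate 2 ran for 1130 kb on 3RHet (555450 to 1685575), or 44.9% of the scaffold, and replicate 1 had 97 regions inside it and the combined list 57. On 3LHet it was 683 kb (710859 to 1394335), with 85 replicate 1 and 62 combined regions inside. On 2LHet it was 170 kb (171415 to 341567), with 11 and 18. Replicate 1 density inside these gaps was 85.8 regions per Mb on 3RHet, against 91.4 over the whole scaffold, 124 on 3LHet, against 95.9, and 64.6 on 2LHet, against 67.8. It was thus higher than over the scaffold on 3LHet and slightly lower on 3RHet and 2LHet. Replicate 1 gaps were far shorter. Its longest were 110.6 kb on 3RHet (927116 to 1037752), 97.6 kb on 3LHet (79900 to 177513), 64.0 kb on 2LHet (59209 to 123237), 56.1 kb on YHet (78982 to 135092) and 24.3 kb on XHet (127435 to 151728). None of these 5 held a replicate 2 region, and on 2LHet the combined list was empty there too, over 64.1 kb. Replicate 2 had 6.84 regions per Mb on the scaffolds, and 5 of its 41 regions lay outside replicate 1. At these numbers, its absence from these gaps does not set them apart.

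Few replicate 1 regions on the scaffolds were found in replicate 2, counting at least 1 bp in common. The number was 41 of 532 (7.71%, 5.59 to 10.3), against 49.5% on the arms (48.4 to 50.6) and 45.8% over the whole replicate 1 list. By scaffold it was 3 of 20 on XHet (15.0%), 3 of 25 on 2LHet (12.0%), 1 of 12 on YHet (8.33%), 20 of 245 on 3LHet (8.16%, 5.06 to 12.3) and 14 of 230 on 3RHet (6.09%, 3.37 to 10.0). The 5 intervals overlapped, so no order of scaffolds is distinguishable at these counts. In the reverse direction 36 of 41 replicate 2 regions were found in replicate 1 (87.8%, 73.8 to 95.9), against 92.1% on the arms (91.3 to 92.9) and 91.8% over the whole replicate 2 list. Low support of replicate 1 regions thus stood beside high support of replicate 2 regions, with a replicate 2 density of 6.84 per Mb. The share for replicate 1 was 3.38% at 50% reciprocal overlap and 14.9% without regions of tied score. The share for replicate 2 was 43.9% at 50% reciprocal overlap, where 18 regions of each list were paired.

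Support depended on width. Of replicate 1 scaffold regions over 5 kb, 18 of 43 were found in replicate 2 (41.9%, 27.0 to 57.9), against 85.4% on the arms (82.6 to 87.9). Between 2 and 5 kb it was 22 of 253 (8.70%, 5.53 to 12.9), against 67.1% on the arms. Under 2 kb it was 1 of 236 (0.424%, 0.0107 to 2.34), against 18.5% on the arms. In each width class the share found was lower on the scaffolds than on the arms. The class over 5 kb reached 15987 bp on the scaffolds and 23363 bp on the arms, so widths were not matched within it. Replicate 2 had 6.84 regions per Mb on the scaffolds and 45.2 on the arms. The part of this density in the lower support was not tested. On 3RHet, 8 of 15 regions over 5 kb were found, and on 3LHet 7 of 24. On these 2 scaffolds no region under 2 kb was found, 0 of 100 on 3LHet and 0 of 112 on 3RHet, which allows shares of up to 3.62% and 3.24%. Overlap by chance also grows with width, and these width classes were chosen after the values were seen.

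**Figure D5:**
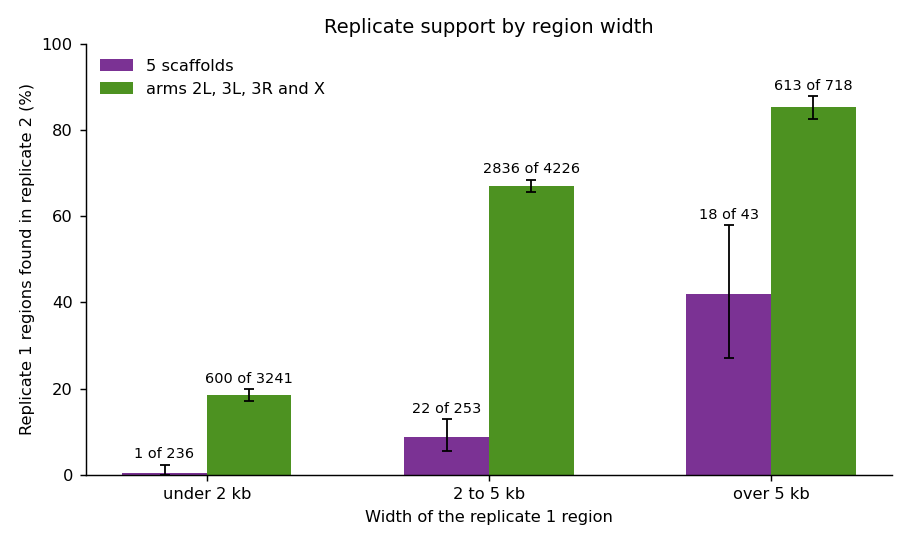
Share of replicate 1 regions found in replicate 2 with at least 1 bp in common (%), by width of the replicate 1 region, on the 5 scaffolds and on the arms 2L, 3L, 3R and X. Bars start at 0, lines are exact 95% intervals and numbers above them are the regions found; support on the scaffolds is 0.424%, 8.70% and 41.9% with growing width.

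The 41 replicate 2 regions sat mostly inside replicate 1 regions. Of them, 24 lay wholly inside and 32 to at least 90% of their bases, 4 lay partly inside, and 5 lay outside. In bases, 89.3% of replicate 2 on the scaffolds was inside replicate 1 regions, against 84.2% on the arms. The replicates shared 94.9 kb of a joint 1462 kb, a Jaccard index of 6.49%, against 41.2% on the arms. Median width of the replicate 1 regions that were found was 4577 bp, against 2032 bp for the rest, and their median score was 1.60, against 1.17. Of the 36 replicate 2 regions that touched replicate 1, 34 were narrower than the widest region they touched, and 17 of them spanned at most 50% of its width. The exceptions were 3LHet 591537 to 603231, with 11695 bp against 11392 bp, and 3LHet 708387 to 710858, with 2472 bp against 2431 bp.

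The 5 replicate 2 regions outside replicate 1 were short and lay 900 to 6730 bp from the nearest replicate 1 region. On 3LHet they were 238371 to 240059, 650686 to 652500, 1416825 to 1418229 and 1711005 to 1712409, at 900, 1474, 6730 and 1456 bp from the nearest replicate 1 region. On 3RHet it was 553849 to 555449, at 1645 bp. The median gap between replicate 1 regions of the scaffolds was 4.23 kb, so these distances alone do not show closeness. Widths ran from 1405 to 1815 bp. The last one on 3LHet had a score of 3.52, the joint second-highest value of the whole replicate 2 list, tied among 3 regions, and the combined list covered 71.0% of it. Of the 5, 2 lay outside the combined list as well, 3LHet 1416825 to 1418229 and the one on 3RHet.

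On XHet the 3 replicate 2 regions each lay wholly inside a replicate 1 region, of 4577, 6078 and 5050 bp. These replicate 2 regions were 60034 to 62340, 74453 to 77502 and 83518 to 86017, with scores of 0.66, 1.12 and 1.58. Their gaps were 12.1 and 6.01 kb. All 3 fell in the replicate 1 cluster of 8 regions named above, and the other 17 replicate 1 regions of XHet had no counterpart. On 2LHet the 3 replicate 2 regions were spread out. The one at 31624 to 36528 (4905 bp) lay to 94.8% and the one at 167405 to 171414 (4010 bp) to 100% inside replicate 1. The third, 341568 to 342907, lay to 31.6% inside it and scored 1.92, rank 46 of the replicate 2 list. On YHet the only replicate 2 region, 327385 to 328778, lay wholly inside the widest replicate 1 region there, 327078 to 329478 (2401 bp), in segment 10, which held 3 of its 12 replicate 1 regions.

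Each region carries an enrichment score by the authors, whose scale is not named, so it was used only to rank regions within a list. Scaffold regions ranked high in both replicates. Their median percentile among all regions of the list, from low to high, was 77.7 in replicate 1 and 71.0 in replicate 2. It was 45.7 and 49.8 on the arms, and 71.7 and 41.4 on chromosome 4. On U it was higher still, at 90.8 and 94.2, so a high rank was not particular to the scaffolds. YHet stood at 95.5 in replicate 1, with 12 regions scoring 1.23 to 3.56, and at 59.4 in replicate 2 with its single region. On 2LHet it was 79.3 and 89.6, on 3RHet 79.3 and 69.1, on 3LHet 73.4 and 61.4, and on XHet 73.1 and 82.7. Of the replicate 2 scaffold regions, 28 of 41 scored above the list's median. Sparse regions in replicate 2 were thus not low in score.

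Many scaffold scores were shared exactly with another region of the same list. This held for 324 of 532 in replicate 1 (60.9%) and 7 of 41 in replicate 2 (17.1%), against 37.8% and 15.5% on the arms. On U the share was above that of the scaffolds, at 69.5% and 22.1%, and on chromosome 4 it was 31.25% and 20.5%. The share was 75.0% on YHet, 66.5% on 3RHet, 60.0% on XHet, 56.0% on 2LHet and 55.5% on 3LHet in replicate 1. Tied regions were narrower, with a median of 1770 bp against 3040 bp for the others on the scaffolds. The best replicate 1 score was such a tie on 4 of the 5 scaffolds. It was 4.14 at 3LHet 1660656 to 1661973, and 3.56 at both 3RHet 1037753 to 1039312 and YHet 275963 to 277984, each value present 3 times in the list. On XHet it was 2.43 at 33323 to 35655, a value present 6 times. None of these 4 regions was found in replicate 2, where 7.71% of all replicate 1 scaffold regions were found. At that share, none of 4 does not set them apart from the rest. A high rank on the scaffolds therefore stood beside a high share of repeated values. The part of read number in such ties was not tested, since the lists give no reads.

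In the combined list, most scaffold regions were backed by replicate 1 alone. They numbered 322 of 455 (70.8%, 66.4 to 74.9), against 36.1% on the arms, 76.6% on chromosome 4, 44.25% on U and 38.8% over the whole list. Both replicates backed 38 (8.35%, 5.98 to 11.3), against 48.4% on the arms, 19.6% on chromosome 4, 11.25% on U and 44.6% over the whole list. Neither backed 91 (20.0%, 16.4 to 24.0), against 11.6% on the arms, 3.80% on chromosome 4, 41.75% on U and 12.8% over the whole list. Replicate 2 alone backed 4, all on 3LHet (0.879%, 0.240 to 2.24), against 3.85% on the arms and 3.72% over the whole list. A high share with replicate 1 alone, on chromosome 4, and a low share with both, on U, were thus not particular to the scaffolds. The combined list is of the same series as the replicates, so this support is not independent of it. Conversely, 61.8% of replicate 1 scaffold regions were found in the combined list (57.6 to 66.0), against 81.4% on the arms, with 88.0% on 2LHet, 80.0% on XHet, 66.9% on 3LHet, 53.0% on 3RHet and 41.7% on YHet. Of replicate 2 scaffold regions, 39 of 41 were found there.

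The 38 scaffold regions backed by both replicates were wide and held a large part of the covered bases. Their median width was 5067 bp, against 1595 bp with replicate 1 alone and 1131 bp with neither, and they held 23.6% of the bases in combined scaffold regions. They numbered 19 on 3LHet, 12 on 3RHet, 3 each on 2LHet and XHet, and 1 on YHet. On the arms the median was 3039 bp with both replicates, so the regions shared by the replicates were wider on the scaffolds, although all combined scaffold regions together were narrower. Tied scores made up 62.6% of the regions with neither replicate, 41.6% of those with replicate 1 alone and 7.89% of those with both. Where 50% of a combined region's bases had to lie in each replicate, both backed 4.18%. Of the 455, 11 joined 2 replicate 1 regions each, and 37 replicate 1 regions were divided among 2 or more combined regions.

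The widest combined regions of each scaffold were found in both replicates more often than the best-scoring ones. A single shared bp counted, and overlap by chance grows with width, so the 2 sets were not on an equal footing. The part of width in this difference was not tested. Among the 3 widest of each scaffold, 12 of 15 were backed by both, against 8.35% of all combined scaffold regions. The widest on 3LHet, 1382952 to 1398948 (15997 bp, score 1.41), was covered to 99.9% by replicate 1 and 23.0% by replicate 2. The next, 1565590 to 1578732 (13143 bp), had 96.6% and 12.3%, and 591502 to 603574 (12073 bp) had 94.4% and 96.9%, the only one of the 15 in which replicate 2 covered more than replicate 1. On 3RHet the widest were 1889142 to 1903476 (14335 bp), 1803602 to 1817180 (13579 bp) and 1700454 to 1708386 (7933 bp), covered to 97.1%, 95.8% and 81.8% by replicate 1 and to 20.1%, 28.6% and 37.8% by replicate 2. The first 2 of these lie in segment 8, which was the most covered of the scaffold. On XHet the widest, 71322 to 77918 (6597 bp), had 92.1% and 46.2%, and on 2LHet 27956 to 36550 (8595 bp) had 96.8% and 57.1%. The neighbour of that 2LHet region, 19632 to 27618 (7987 bp), was covered to 95.3% by replicate 1 and had no replicate 2 base. On YHet the widest, 319416 to 322066 (2651 bp), had replicate 1 alone, over 75.5% of its bases.

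Among the 2 best-scoring combined regions of each scaffold, 2 of 10 were backed by both replicates, both on XHet, and 6 by neither. Over all combined scaffold regions these shares were 8.35% and 20.0%. The 2 on XHet are also among the 3 widest there. Of the 10, 8 had a score that another region of the list shared. On 3LHet the best, 1299660 to 1300660 (1001 bp, score 3.50), shared its score with 13 other regions and lay 1771 bp from the nearest replicate 1 region. On 2LHet the best were 308332 to 309332 (1001 bp, score 1.94) and 305888 to 306992 (1105 bp, score 1.78), 22034 and 19590 bp from the nearest replicate 1 region. They stand in segment 9, which was empty in both replicates and held 3 combined regions. On YHet the best, 158798 to 160042 (1245 bp, score 1.70), lay in a segment without a region in either replicate, 16780 bp from the nearest of replicate 1. On XHet, by contrast, the best-scoring region, 83268 to 87778 (4511 bp, score 1.40), was covered to 100% by replicate 1 and 55.4% by replicate 2. Among the regions named here, width and score thus picked out different ones on each scaffold except XHet.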

How the data were processed

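ChIP-seq region lists of 2 ChIP samples and 1 list of the whole series were used. Per the submitters' processing notes, Bowtie 0.12.7 was the aligner, and positions are on FlyBase release 5, per the file headers. Peak caller, threshold, role of the input libraries and origin of the combined list were each not given in the sources used here. Every region has an enrichment score, as deposited by the authors, on an unnamed scale. Lengths are those of the file headers, uncorrected for gaps or repeats. Gene positions were available only for release 6, so no gene or sequence is given. Overlaps, gaps and clusters were computed with Python 3.11.15, pandas 2.3.3 and scipy 1.17.1, tested on simulated lists. Named regions are the 3 widest and 2 best-scoring combined regions of each scaffold, the widest of each replicate, the longest clusters and gaps, and the replicate 2 regions of scaffolds with at most 5. Replicate 2 regions outside replicate 1, the best-scoring replicate 1 regions, and the stretches drawn around replicate 2 regions were chosen after their values were seen. 2R and 2RHet are not analysed here. Members, measures and alternatives were chosen with earlier results of these data known.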

Additional observations from a re-analysis of the deposited data

How the results depend on the processing

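Of 40 alternative values for 7 results, 33 stayed within 1 SD of the 2 replicates (covered share, ratio to the arms, width, clusters) or within the exact 95% interval (shares found). The SD is wide where the replicates disagree, so this does not measure stability. Asking for 50% reciprocal overlap gave 3.38% of replicate 1 and 43.9% of replicate 2 regions found, and 50% of a region's own length gave 3.57% of replicate 1 and 85.4% of replicate 2. Asking for 50% of the combined length gave 4.18% in both replicates. For these falls the cause was not tested. Leaving out tied scores, chosen after seeing the data, gave 14.9% of replicate 1 found, 13.6% of combined regions in both and a median width of 2710 bp; for these tied regions the cause was not tested. By single replicate, covered shares were 1.77% to 24.2%, ratios 0.145 to 1.05, widths 2096 to 2313 bp and shares in clusters 0 to 57.0%. No paired analysis was possible because the input samples, which carry the same replicate numbers, enter with no regions of their own. With no read totals, the part of depth in the replicate difference was not tested.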
